A study of Mus musculus with 7 samples.

Results

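The adenylate cyclase family was followed in pancreatic islets of pregnant mice as the 10 genes ADCY1 to ADCY10, taken by name from a table of 34082 gene names. All 10 were found, and 6 of them had a mean of at least 0.5 TPM (a sequencing level already divided by transcript length) and were tested. Islet RNA from 7 mice was sequenced, with 1 library per mouse. The 4 βPrlR+/- mice carried a floxed prolactin receptor gene (Prlr) and the Pdx1CreER transgene. They received tamoxifen at 4 mg per day for 5 days, which deletes floxed Prlr in β-cells. The paper reports that islet Prlr expression fell in part in such mice, and by a similar amount in Prlr+/- mice. The 3 Prlr+/- mice lacked 1 Prlr allele in every tissue, and had neither Cre nor tamoxifen. All were C57BL/6 females bred to wild-type males and were killed on day 15 of gestation, and both groups carried a Prlr deletion in β-cells. The comparison asks whether Prlr in cells other than β-cells bears on islet gene expression in pregnancy. The effects of genotype, of Cre and of tamoxifen cannot be told apart, and no islets of wild-type mice were analysed here. The sources disagree in places: the β-cell deletion is homozygous in the deposited labels and heterozygous in the paper, age is 3 to 4 months in the former and 4 to 5 months in the latter, and the term CkoWt in the titles of the βPrlR+/- samples is not explained in either.

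Adenylate cyclases make cyclic AMP (cAMP) from ATP. The membrane-bound isoforms are switched on by the stimulatory G protein and differ in what else they read, such as calcium, calmodulin, the G protein βγ subunits or the inhibitory G protein, whereas ADCY10 is a soluble enzyme stimulated by bicarbonate and calcium. In β-cells cAMP made after GLP-1 or GIP binds its receptor acts through protein kinase A and Epac proteins and raises insulin release above that evoked by glucose.

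PRLR itself lay between 38.4 and 55.6 scaled TPM among βPrlR+/- mice, and between 35.05 and 51.1 among Prlr+/- mice, and the groups overlapped. Insulin mRNA (INS, the defining β-cell product) held 314430 to 511917 scaled TPM, and the summed acinar markers ranged from 1094 in βPrlR+/- mouse 2 to 9456 in βPrlR+/- mouse 1. Across the 14840 genes tested, 10 passed an adjusted p of 0.05 (limma, Benjamini-Hochberg), which is 0.0674%, and 9 of these were lower in Prlr+/- mice. That direction rests on single mice, since 2 were lower and 5 higher without Prlr+/- mouse 3, and 2 lower and 3 higher without Prlr+/- mouse 1. The paper's methods give a range of reads per sample, but the deposited TPM do not show how many reads lie behind a level, so no counting error is given and the spread between mice is the only error given. No source says that mice were pooled, and the p-values measure the spread between these 7 libraries.

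ADCY6 and ADCY9 made up most of the adenylate cyclase mRNA of the islets. In every mouse their 2 levels came to between 83.4% and 87.3% of the summed TPM of the family. ADCY6 alone held 53.1% to 60.9% and ADCY9 24.7% to 31.7%. By mean scaled TPM the order was ADCY6 (23.3 ± 2.28, SD, n = 7), ADCY9 (11.8 ± 1.15), ADCY3 (2.29 ± 0.383), ADCY4 (1.34 ± 0.256), ADCY2 (0.809 ± 0.352), ADCY5 (0.620 ± 0.193), ADCY1 (0.375 ± 0.197), ADCY7 (0.368 ± 0.115), ADCY8 (0.222 ± 0.0575) and ADCY10 (0.0203 ± 0.00665). The first 4 places held in all 7 mice, since each of ADCY6, ADCY9, ADCY3 and ADCY4 lay above the next gene in every mouse. Below them the order was less firm. ADCY2 exceeded ADCY5 in 5 of 7 mice and ADCY1 exceeded ADCY7 in 4 of 7, with mean log2 ratios (0.30 and -0.047) smaller than their SDs (0.62 and 0.57), so these pairs did not differ beyond the spread between mice. ADCY2 was the higher in all 4 βPrlR+/- mice and in 1 of 3 Prlr+/- mice. ADCY7 exceeded ADCY8 in 6 of 7, by a log2 ratio of 0.72 ± 0.67 (SD). ADCY10 was the lowest gene in each mouse. Set among all tested genes, the mean of ADCY6 lay above that of 80.0% of them and the mean of ADCY9 above 63.2%, whereas ADCY3 exceeded 24.0% and ADCY2 8.13%.

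**Figure D1:**
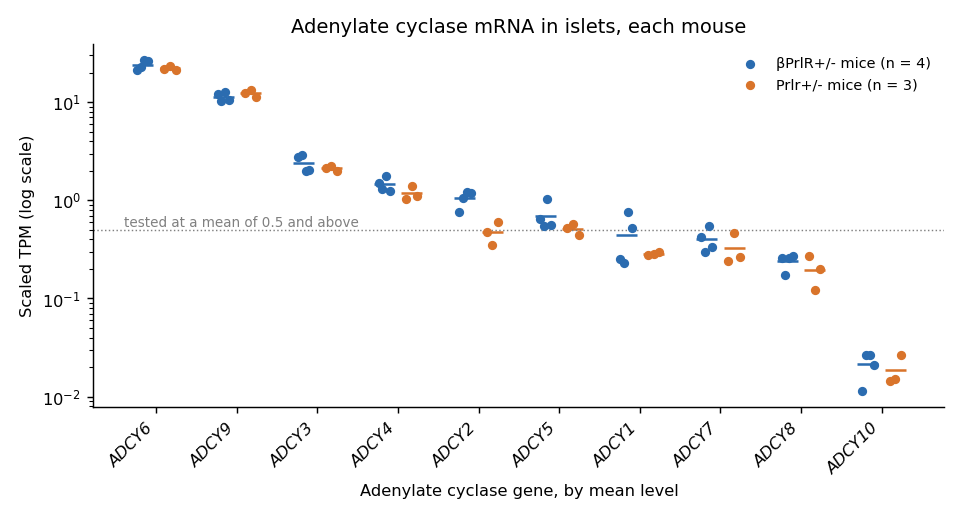
Level of each adenylate cyclase in each mouse, as scaled TPM on a log axis, with genes ordered by their mean. Each point is 1 mouse, the short lines are group means, and the dotted line marks the mean of 0.5 TPM above which genes were tested. The groups overlap for 9 genes, and for ADCY2 all 3 Prlr+/- mice lie below the 4 βPrlR+/- mice.

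Summed over the family, scaled TPM came to 39.8, 39.5, 47.0 and 43.0 for βPrlR+/- mice 1 to 4, against 39.2, 42.2 and 37.4 for Prlr+/- mice 1 to 3. The sums overlapped, with means of 42.3 ± 3.49 (SD, n = 4) and 39.6 ± 2.41 (n = 3). βPrlR+/- mouse 3 had the highest sum, and 6 of the 10 members (ADCY6, ADCY4, ADCY2, ADCY5, ADCY1 and ADCY7) were highest in that animal, which also had the lowest summed level of β-cell markers. Whether these values bear on each other was not tested. Of the 6 tested members, 0 passed an adjusted p of 0.05 in limma with Benjamini-Hochberg adjustment, and 1, ADCY2, had an unadjusted p under 0.05, against 4.52% of all genes tested. The log2 fold change (Prlr+/- over βPrlR+/-, of scaled TPM + 1) was below 0 for 5 of the 6, against 48.3% of all genes, or for all 6 with TPM as deposited, against 88.1% of all genes in that setting. Its median over the 6 was -0.14, or -0.092 without βPrlR+/- mouse 3, against 0.0042 over all genes tested. The added 1 shrinks the fold change of low genes, which most members are.

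ADCY6 and ADCY5 are the isoforms that calcium inhibits. ADCY6 levels were 21.1, 22.7, 26.6 and 26.2 scaled TPM for βPrlR+/- mice 1 to 4, against 21.8, 23.4 and 21.2 for Prlr+/- mice 1 to 3. The Prlr+/- values lay inside the range of the other group. The log2 fold change was -0.12 with an SE of 0.092, and its adjusted p was 0.9999 (limma, Benjamini-Hochberg). ADCY5 measured 0.648, 0.547, 1.03 and 0.564 in βPrlR+/- mice against 0.528, 0.574 and 0.445 in Prlr+/- mice. βPrlR+/- mouse 3 was the highest and the groups overlapped. The log2 fold change of ADCY5 was -0.16 (SE 0.12, adjusted p = 0.9999, limma). Without βPrlR+/- mouse 3 it was -0.067 for ADCY5, -0.072 for ADCY6 and, of the members below, -0.11 for ADCY4. The ADCY6 value was -0.18 without βPrlR+/- mouse 1 and -0.26 with TPM as deposited.

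ADCY9, an isoform that responds poorly to the activator forskolin, was the only tested member with a higher mean in Prlr+/- mice, at 12.4, 13.4 and 11.4 scaled TPM against 12.1, 10.2, 12.7 and 10.6 in βPrlR+/- mice. The groups overlapped, the log2 fold change was 0.11 (SE 0.093, adjusted p = 0.9999, limma), and its sign turned with TPM as deposited. It was 0.060 without Prlr+/- mouse 2, 0.064 without βPrlR+/- mouse 2 and 0.17 without Prlr+/- mouse 3. As a share of the family, ADCY9 took 30.3% to 31.7% in the 3 Prlr+/- mice and 24.7% to 30.3% in the βPrlR+/- mice, where mouse 1 was just above the lowest Prlr+/- mouse.

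The calcium- and calmodulin-stimulated isoforms are ADCY1, ADCY8 and, in vitro, ADCY3. ADCY3 measured 2.74, 2.93, 1.99 and 2.05 scaled TPM for βPrlR+/- mice 1 to 4, against 2.13, 2.23 and 1.98 for Prlr+/- mice 1 to 3. Mice 1 and 2 of the βPrlR+/- group were above all others, and mice 3 and 4 were below Prlr+/- mice 1 and 2. The log2 fold change was -0.13 (SE 0.12, adjusted p = 0.9999, limma), and -0.083 without βPrlR+/- mouse 1 or -0.060 without mouse 2. With TPM as deposited it was -0.23. ADCY1, best known from brain, measured 0.251, 0.233, 0.760 and 0.528 in βPrlR+/- mice and 0.277, 0.281 and 0.297 in Prlr+/- mice, so that βPrlR+/- mice 3 and 4 were high and mice 1 and 2 were below every Prlr+/- mouse. ADCY8 lay between 0.175 and 0.272 among βPrlR+/- mice, and between 0.122 and 0.268 among Prlr+/- mice. ADCY1 and ADCY8 fell under the 0.5 TPM minimum and were not tested across genes. The exact permutation test of their group means, two-sided over the 35 splits of the mice, gave p = 0.429 for ADCY1 and p = 0.343 for ADCY8.

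ADCY2, ADCY4 and ADCY7 are the isoforms that G protein βγ subunits stimulate. ADCY2 measured 0.767, 1.05, 1.22 and 1.20 scaled TPM for βPrlR+/- mice 1 to 4, against 0.475, 0.352 and 0.599 for Prlr+/- mice 1 to 3. Every Prlr+/- mouse lay below every βPrlR+/- mouse, and the mean was 0.475 ± 0.124 (SD, n = 3) against 1.06 ± 0.208 (n = 4), a ratio of 0.449. Genes whose groups lay apart with Prlr+/- mice lower made up 3.11% of all genes tested. The log2 fold change of ADCY2 was -0.48 with an SE of 0.11, its unadjusted p was 0.00342 (place 87 of 14840) and its adjusted p was 0.584 (limma, Benjamini-Hochberg). The two-sided exact permutation test of the group means gave p = 0.0571, where 0.0286 is the smallest that 35 splits allow. ADCY2 is among the genes that the study listed as changed in these same mice, so its direction here is not independent evidence. The study called it lower with Sleuth, a different method, at a false discovery rate under 0.05. Limma on TPM did not call ADCY2 here, and why the calls differ was not tested. The Prlr+/- mean was below the 0.5 TPM minimum, and the gene entered the test through its level in βPrlR+/- mice. In bulk islet RNA, fewer cells that express a gene and less RNA per cell cannot be told apart.

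Ratios between members within a mouse do not depend on scaling between mice. ADCY2 was 0.0363 to 0.0465 of ADCY6 among βPrlR+/- mice and 0.0150 to 0.0283 among Prlr+/- mice. The groups lay apart. Against ADCY9 the ratio ran from 0.0635 to 0.113 and from 0.0263 to 0.0528, also apart, and against ADCY3 the groups overlapped. The ratios were formed because the ADCY2 groups lay apart, so they are a description. As a share of the family ADCY2 took 1.93% to 2.78% in βPrlR+/- mice and 0.834% to 1.60% in Prlr+/- mice.

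Nearly all of the ADCY2 level sat on 1 RefSeq transcript, NM_153534.2, which carried 95.1% of the gene's mean. The 250 bases before its start are shown because ADCY2 is the member whose groups lay apart. They lie on the minus strand at chr13:68999542-68999791 (RefSeq, GRCm38.p6), and capitals mark CpG dinucleotides.
ADCY2: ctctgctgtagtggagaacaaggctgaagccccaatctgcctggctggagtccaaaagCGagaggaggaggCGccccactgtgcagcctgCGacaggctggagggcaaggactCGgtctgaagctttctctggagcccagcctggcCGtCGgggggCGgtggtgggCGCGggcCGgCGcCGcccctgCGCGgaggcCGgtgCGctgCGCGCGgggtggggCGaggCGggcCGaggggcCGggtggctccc
The window holds 23 CpG and overlaps no annotated exon. Of the 32851 such windows in the RefSeq table, 86.7% hold fewer CpG and the median holds 6. In the same mice NM_153534.2 measured 0.767, 1.01, 0.981 and 1.20 scaled TPM against 0.475, 0.352 and 0.599, again with the groups apart.

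ADCY4, the highest isoform of these 3, measured 1.503, 1.30, 1.79 and 1.25 scaled TPM in βPrlR+/- mice and 1.04, 1.41 and 1.10 in Prlr+/- mice. Prlr+/- mouse 2 was above βPrlR+/- mice 2 and 4, and the log2 fold change was -0.17 (SE 0.11, adjusted p = 0.9999, limma). ADCY7, an isoform prominent in blood cells, lay between 0.295 and 0.551 in βPrlR+/- mice and between 0.244 and 0.467 in Prlr+/- mice, and the exact permutation test gave p = 0.429. ADCY10, the soluble enzyme, reached at most 0.0268 scaled TPM in any mouse. Its groups overlapped, with p = 0.629 by the exact permutation test.

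**Figure D2:**
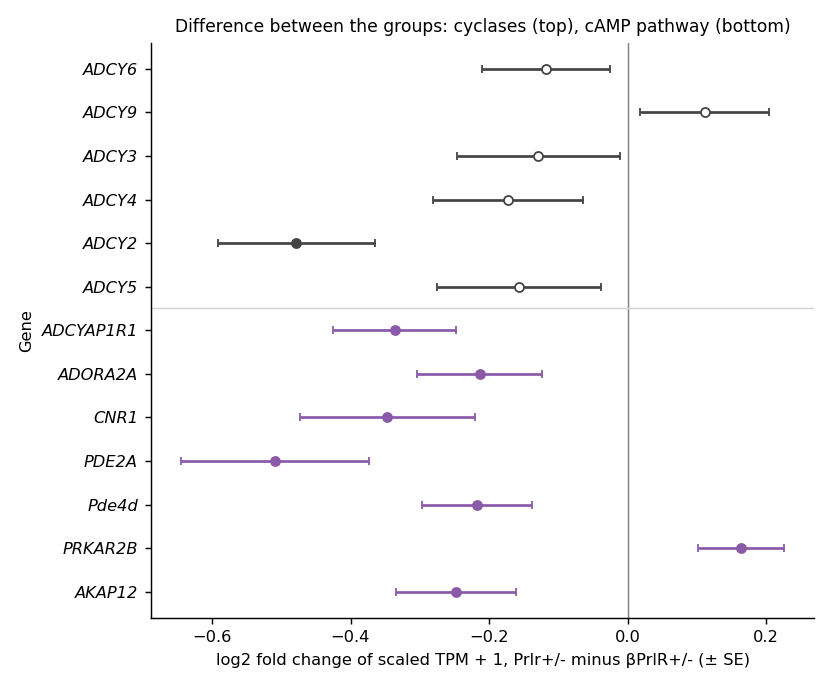
log2 fold change (Prlr+/- minus βPrlR+/-, scaled TPM + 1) with its SE from limma for the 6 tested adenylate cyclases, above the line, and for 7 cAMP pathway genes whose groups do not overlap and whose unadjusted p is under 0.05, below it. Filled points mark genes whose groups do not overlap, and ADCY2 at -0.48 is the only such cyclase.

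The marker levels of other islet cells are given beside ADCY2. Of 11 tested autonomic neuron markers outside the study's list of changed genes, 7 had a log2 fold change below 0, with a median of -0.12. Leaving out the genes that the study called changed in these mice favours markers without a difference, so this count is a description. All 16 markers outside the study's list were found. Their summed level ran from 142 to 197 scaled TPM among βPrlR+/- mice and from 129 to 142 among Prlr+/- mice. The 2 highest were NPY and TH. By contrast, DBH, CHAT, SLC6A2 and ECEL1 had means of 0.0776, 0.184, 0.0316 and 0.121 over the 7 mice. The sum thus mostly follows its highest markers, and whether it measures nerve content was not tested. NPY, a peptide of sympathetic nerves, measured 32.8, 62.4, 32.8 and 32.9 against 26.8, 22.5 and 25.1, and TH, an enzyme of catecholamine synthesis, 30.1 ± 2.22 and 28.0 ± 5.84, with overlap. Of the 11 tested, 3 lay apart with Prlr+/- mice lower, against 3.11% of all genes, and 1 with Prlr+/- mice higher, against 1.84%. Besides NPY, and named after their values were seen, GAP43 and CHRNB4 were the lower ones at 5.20 ± 0.381 and 3.85 ± 0.691 and at 1.09 ± 0.118 and 0.659 ± 0.192, and ELAVL4 was the higher one, at 10.8 ± 0.414 and 13.3 ± 1.48, while INA, NEFH and RET had means that were higher in Prlr+/- mice and overlapped. CHAT and ELAVL3, too low to be tested, also lay apart with Prlr+/- mice lower, and ELAVL3 is named by the study as well. The 12 neuron markers that the study listed as changed were all lower, as their choice on these mice fixes, with sums of 87.8 to 104 and of 61.3 to 67.1 and with UCHL1 and TUBB3 highest. All 12 tested endothelial markers had a log2 fold change below 0, with sums of 227 to 294 against 201 to 237 and with PLVAP and ESM1 highest. An unadjusted p under 0.05 was seen for 6 of these 12, or for 3 without βPrlR+/- mouse 3, and 4 of the 12, PECAM1, CDH5, TIE1 and ESAM, lay apart with Prlr+/- mice lower, against 3.11% of all genes (named after their values were seen). The 10 Schwann and satellite glia markers, led by GFRA3, summed to 11.7 to 17.9 and to 11.7 to 13.5. Among them S100B, named after its values were seen, lay apart at 0.717 ± 0.186 and 0.372 ± 0.0943, its Prlr+/- mean being below the 0.5 TPM minimum. GFAP, too low to be tested and also named after its values were seen, lay apart at 0.421 ± 0.189 and 0.198 ± 0.0790. The summed α-cell markers, led by TTR and GC, were 658 to 975 against 637 to 665. GC, a vitamin D binding protein, lay apart at 38.2 ± 2.78 and 29.9 ± 1.31 (unadjusted p = 0.0016 in limma, place 54, adjusted p = 0.448). The δ- and PP-cell markers, led by PPY and SST, were 18213 to 21355 against 15776 to 17479. β-cell markers, led by INS and Ins1, were higher in Prlr+/- mice for 11 of 12, with sums of 451616 to 599262 and of 582632 to 715270. Fibroblast and pericyte markers, led by RGS5 and DCN, were below 0 for 7 of 8 tested. Leukocyte markers, led by C1QA and CD79A, were below 0 for 1 of 7, or for 5 of 7 with TPM as deposited. Duct markers, led by KRT7 and SPP1, were below 0 for 2 of 5, or 4 of 5 as deposited, and acinar markers, led by CLPS and CPB1, for 0 of 6, or 6 of 6 without βPrlR+/- mouse 2. Apart from the neuron markers listed by the study, 0 of these markers passed an adjusted p of 0.05 (limma, Benjamini-Hochberg). The sums of neuron markers not so listed, of endothelial, glia and α-cell markers overlapped between groups. The sums of δ- and PP-cell markers and of the neuron markers listed by the study lay apart. None of these lists had a marker at 0 in every mouse. Their part in the ADCY2 difference was not tested.

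**Figure D3:**
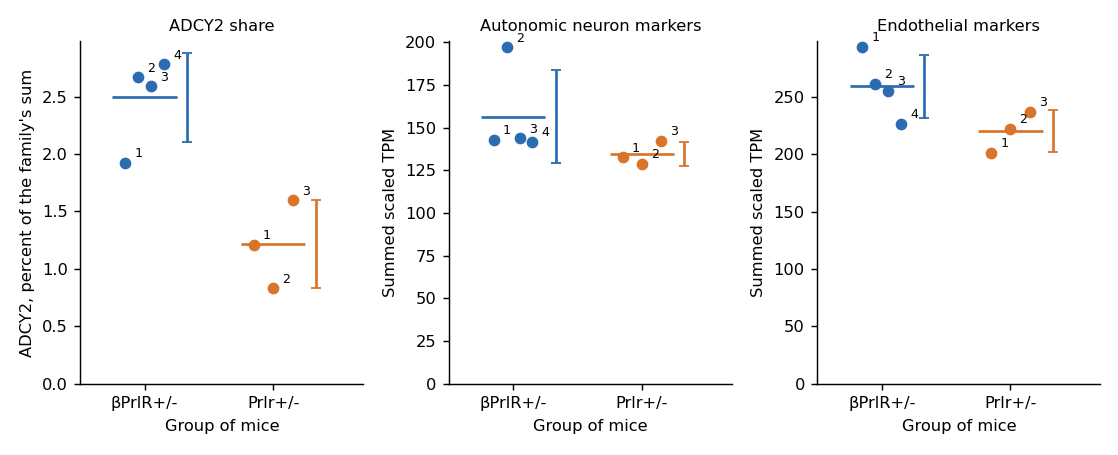
ADCY2 as a percent of the family's summed TPM (left), and the summed scaled TPM of the 16 autonomic neuron markers outside the study's list (centre) and of the 13 endothelial markers (right). Each point is 1 numbered mouse, lines are group means and bars are ± SD. ADCY2 shares lie apart. The marker sums of βPrlR+/- mouse 4 fall within the range of the Prlr+/- mice. The neuron sum mostly follows its highest markers, led by NPY and TH. Neuron markers that the study listed as changed in these mice are left out, which favours overlap, and the sums of those left out lie apart.

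The genes whose levels over the 7 mice followed ADCY2 most closely, on the log2 scale, were OPRL1 (the nociceptin receptor), GLIS3 (a β-cell transcription factor) and SLC5A7 (the choline transporter of cholinergic nerves), each with Pearson's r of 0.970. With 7 mice that share 1 scaling, 109 genes exceeded an r of 0.9 with ADCY2, so the 3 names are a description. SLC5A7 is on the study's changed list. For ADCY6 the closest were ZNF626, CCDC116 and DGKZ, at 0.976, 0.972 and 0.965, with 94 genes above 0.9. For ADCY9 they were PYURF, Gm42321 and POLR3K, at 0.981, 0.973 and 0.968, with 90 genes above 0.9.

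The 10 genes are represented by 53 RefSeq transcripts, of which 35 are predicted models and 14 stayed below 0.01 TPM in every mouse. Of the 13 tested, 0 passed an adjusted p of 0.05 in limma (0.021% of all 28553 transcripts did) and 2 had an unadjusted p under 0.05, against 3.91% of all transcripts. They were NM_153534.2 of ADCY2, at a log2 fold change of -0.43 (SE 0.14, unadjusted p = 0.0144 in limma), and NM_080435.1 of ADCY4, at -0.41 (SE 0.17, unadjusted p = 0.0426 in limma). The ADCY4 transcript measured 0.859, 0.766, 0.799 and 0.576 scaled TPM in βPrlR+/- mice and 0.235, 0.116 and 0.652 in Prlr+/- mice, so that Prlr+/- mouse 3 lay among the βPrlR+/- values. Its Prlr+/- mean, 0.334, was below the 0.5 TPM minimum, and so was that of NM_153534.2, 0.475, so both were tested through their βPrlR+/- levels. The count of 2 became 1 without βPrlR+/- mouse 1, 2 or 3 or Prlr+/- mouse 1 or 2. NM_080435.1 carried 42.6% of the level of ADCY4 on average and 8.26% to 59.4% in single mice. Where it was lowest, in Prlr+/- mice 1 and 2, the predicted model XM_006518323.1 was highest, at 0.489 and 0.578. The division among the 5 ADCY4 transcripts was thus not stable between mice.

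ADCY6 rested on the predicted model XM_006520306.3, which carried 79.0% of its level. That transcript measured 18.1, 18.0, 19.6 and 21.5 scaled TPM in βPrlR+/- mice and 17.5, 17.7 and 16.5 in Prlr+/- mice. Its groups lay apart, and the exact permutation test gave p = 0.114. The log2 fold change was -0.15 (SE 0.085, unadjusted p = 0.116, limma). Other tested ADCY6 transcripts had fold changes of both signs, and the groups overlapped for the ADCY6 gene. How many of all transcripts lay apart was not worked out, so this is a description. ADCY9 was divided between XM_011245806.1, with 58.2%, and NM_009624.3, with 35.4%. A division among transcripts that share most of their exons is an estimate made by Kallisto, and NM_009624.3 moved from 18.2% to 51.0% of ADCY9 between mice.

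**Figure D4:**
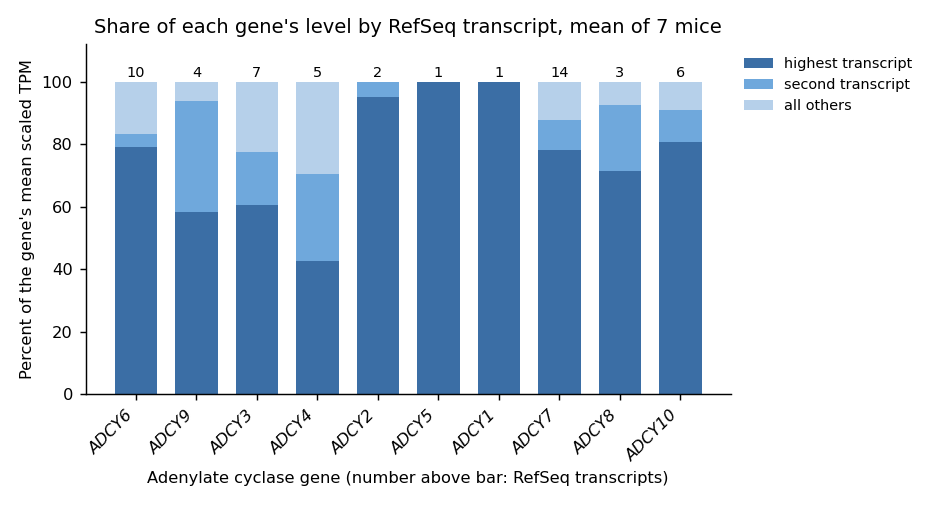
Share of each gene's mean scaled TPM (7 mice) carried by its highest RefSeq transcript, its second and all others, in percent, with the number of RefSeq transcripts above each bar. ADCY2, ADCY5 and ADCY1 rest on 1 transcript almost or entirely, and ADCY9, ADCY3 and ADCY4 are divided.

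The ADCY3 level was divided among transcripts with different annotated starts. Transcript NM_138305.3, with 60.4% of the gene's level by Kallisto's estimate (49.4% to 68.0% over the mice), starts 756 bases downstream of NM_001159536.1 and NM_001159537.1. Its estimate exceeded the sum of those 2 transcripts in all 7 mice, by 1.23 times in βPrlR+/- mouse 3 to 8.07 times in Prlr+/- mouse 2, with a median of 2.75, and the groups overlapped. The 4 predicted ADCY3 models, with 16.2% of the level, were in neither sum, and start sites themselves were not measured. The 250 bases before the downstream start, on the plus strand at chr12:4133903-4134152 (RefSeq, GRCm38.p6), are shown for comparison with ADCY2, with CpG in capitals.
ADCY3: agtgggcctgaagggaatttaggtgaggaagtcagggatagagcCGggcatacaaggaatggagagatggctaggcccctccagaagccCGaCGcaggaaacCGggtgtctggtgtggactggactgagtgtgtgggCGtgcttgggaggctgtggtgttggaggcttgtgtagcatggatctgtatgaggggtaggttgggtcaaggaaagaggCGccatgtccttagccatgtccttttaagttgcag
This window holds 6 CpG, the median of all windows, whereas the window before the upstream start holds 27, more than 91.4% of them. Other annotated ADCY3 transcripts have exons in both windows, over 6 bases of the former and all 250 of the latter. RefSeq windows were matched for 8 of the 10 members, with 11 windows in all, whose CpG number ran from 3 to 34. The cAMP response element TGACGTCA was in 0 of the 11 windows and is in 1.55% of all windows. Its shorter form TGACG, on either strand, was in 2 of the 11, those of ADCY7 and ADCY9, and is in 17.8% of all windows. Such a match is a description of letters only. In the GENCODE annotation 22.1% of the exon bases of ADCY3 lie opposite exons of Cenpo, and the libraries were made with a directional kit but the strand setting of the read assignment is not given. CENPO measured 1.51 to 1.99 scaled TPM, with overlapping groups. For ADCY6 8.92% and for ADCY2 4.49% of exon bases lie opposite exons of predicted genes.

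The genes that feed and read cAMP were examined in 11 lists of 100 genes, of which 97 were found and 80 tested. The 3 calmodulin genes are merged with others in the table and were not counted. None of the 80 passed an adjusted p of 0.05 in limma with Benjamini-Hochberg adjustment. An unadjusted p under 0.05 was seen for 9, or 11.3% against 4.52% of all genes, with 7 lower and 2 higher in Prlr+/- mice. The count of 9 fell to 4 without βPrlR+/- mouse 3 and to 4 without βPrlR+/- mouse 4, and ranged from 4 to 12 over all settings tried. Groups lay apart for 7 genes that were lower, or 8.75% against 3.11%, and for 2 that were higher, a direction seen in 1.84% of all genes. The lists were chosen with earlier results of these data known. They include ADCYAP1R1, which the study listed as changed in these mice, so these shares are a description. The median log2 fold change of the 80 was -0.015, and 53.8% were below 0, against 48.3% of all genes. These signs depend on scaling. With TPM as deposited, 14 of 14 tested phosphodiesterases and 10 of 10 tested kinase anchors were below 0, against 7 and 6 in the main setting. Of all genes, 88.1% were below 0 as deposited.

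Upstream of the cyclases, GLP1R (the GLP-1 receptor) measured 136 ± 31.9 scaled TPM in βPrlR+/- mice and 174 ± 34.7 in Prlr+/- mice (SD, n = 4 and 3 here and for the following genes), and GIPR (the GIP receptor) 51.0 ± 8.87 and 51.5 ± 13.9. Both overlapped between groups and were the 2 highest of 14 stimulatory receptors. Lower in every Prlr+/- mouse were ADCYAP1R1, the receptor of the neuropeptide PACAP, at 1.09 ± 0.0487 and 0.662 ± 0.148 (log2 fold change -0.34, SE 0.088), and the adenosine receptor ADORA2A, at 2.08 ± 0.258 and 1.66 ± 0.149. ADCYAP1R1 is on the study's changed list, which was drawn from these mice. Among 15 inhibitory receptors the highest were SSTR3 for somatostatin, at 94.8 ± 7.93 and 93.8 ± 16.6, and ADRA2A for noradrenaline, at 29.3 ± 3.53 and 36.0 ± 6.22. The cannabinoid receptor CNR1 lay apart at 2.53 ± 0.268 and 1.80 ± 0.448, with a log2 fold change of -0.35 (SE 0.13). Among ligands Gcg, the source of glucagon and GLP-1, measured 18639 ± 3277 and 14829 ± 264 and VIP 103 ± 46.3 and 58.8 ± 13.8, both overlapping, and GIP was listed at 0 in every mouse. The stimulatory G protein subunit GNAS stood at 843 ± 66.9 and 806 ± 42.4 and the inhibitory GNAI2 at 297 ± 59.5 and 363 ± 16.0. Neither differed beyond the spread between mice.

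Downstream, the 2 highest of 16 cAMP phosphodiesterases, the enzymes that break cAMP down, were PDE3B at 35.6 ± 2.61 and 35.7 ± 3.28 scaled TPM and PDE8A at 25.6 ± 1.36 and 25.9 ± 2.52. PDE2A measured 2.94, 4.73, 4.19 and 3.93 in βPrlR+/- mice and 2.54, 2.10 and 2.73 in Prlr+/- mice. All 3 Prlr+/- mice lay below the other group, with a log2 fold change of -0.51 (SE 0.14, adjusted p = 0.715, limma). Pde4d lay apart as well, at 1.78 ± 0.133 and 1.39 ± 0.138. The protein kinase A subunits PRKAR1A (184 ± 6.83 and 182 ± 11.04) and PRKACB (138 ± 10.9 and 149 ± 9.41) overlapped, while the regulatory subunit PRKAR2B was higher in each Prlr+/- mouse, at 23.3 ± 1.46 and 26.2 ± 0.428. The Epac genes RAPGEF4 (35.8 ± 1.79 and 35.3 ± 1.62) and RAPGEF3 (3.27 ± 0.291 and 2.64 ± 0.494) overlapped. Of the kinase anchors, AKAP11 (20.7 ± 2.64 and 20.7 ± 0.520) and AKAP8 (14.2 ± 1.55 and 14.4 ± 3.11) were highest and overlapped, and AKAP12 lay apart at 1.76 ± 0.214 and 1.32 ± 0.0792. In the nucleus, the CREB regulators SIK3 (17.03 ± 1.35 and 15.4 ± 0.386) and CRTC2 (16.2 ± 1.06 and 15.8 ± 1.28) and the CREB targets JUNB (23.7 ± 8.41 and 17.9 ± 5.66) and PER1 (18.2 ± 5.26 and 19.5 ± 2.88) overlapped. The other 2 genes with an unadjusted p under 0.05, named after their values were seen, also overlapped. They were the anchor AKAP2, at 2.20 ± 0.196 and 1.79 ± 0.125, and the CREB target NR4A1, at 9.61 ± 5.68 and 18.1 ± 7.24 (log2 fold change 0.91, SE 0.38), where βPrlR+/- mouse 3 was at 18.1. For the 7 pathway genes that lay apart with an unadjusted p under 0.05, the adjusted p ran from 0.694 to 0.9999 (limma, Benjamini-Hochberg).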

How the data were processed

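Islets (100 to 200 per mouse) were hand-picked, and poly(A) RNA was sequenced from 4 βPrlR+/- and 3 Prlr+/- mice. The authors assigned reads to mouse RefSeq transcripts with Kallisto 0.42.4 and deposited values that their methods call FPKM, but each column of deposited values sums to 1000000, as TPM do, and TPM is the unit used here. Each gene value equals the sum of its transcripts. No genome build is named, and sequences are credited to GRCm38.p6. TPM of each mouse were divided by median-ratio size factors (0.883 to 1.11). For genes and transcripts with a mean of at least 0.5 TPM, log2(scaled TPM + 1) was fitted in limma 3.58.1 (R 4.3.3, variance trend, Benjamini-Hochberg adjustment, threshold 0.05), a step tested on simulated data. Of simulated shifts of 1 log2 unit 87.8% were recovered, and 4.74% of calls were false. Those shifts exceeded every member's main fold change and lay in genes above the level of ADCY2, ADCY4 and ADCY5. Power for such members was not tested. Exact permutation tests of single values, two-sided, used all 35 splits of the mice. Named genes were all members, the pathway genes with groups apart and an unadjusted p under 0.05, the 2 highest of each list, and the 3 closest in pattern to ADCY6, ADCY9 and ADCY2. Genes named after their values were seen fall outside this rule. Other scalings, pseudocounts, filters, a robust variance and leaving out each mouse were tried, and the filter of 0.5 TPM in every mouse was added after seeing the data. The members and lists were chosen with earlier results of these data known. 1 marker gene is not reported here. Figures used matplotlib 3.10.9.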

Additional observations from a re-analysis of the deposited data

Results flagged for a closer look

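ADCY8 in βPrlR+/- mouse 2 measured 0.175 scaled TPM, and the other 3 βPrlR+/- mice lay between 0.257 and 0.272. The gap was 0.848 of the group's range, above Dixon's critical value for 4 samples. The 10 members and their sum made 11 sets of values, and chance alone marks about 1 in 20. The level is far below the 0.5 TPM minimum and 2 of the 3 Prlr+/- mice also lay below 0.257.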

How the results depend on the processing

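No member and no pathway gene passed an adjusted p of 0.05 (limma) under any of the 14 other settings in which it could be tested. The fold change of ADCY2 kept its sign in all 13 of its settings, from -1.01 (pseudocount 0.1) to -0.42, with an adjusted p between 0.278 and 0.99997 (limma). Asking for 0.5 TPM in every mouse removed ADCY2 and ADCY5 from the test. ADCY9 turned to -0.023 with TPM as deposited, a setting that moved the median gene to -0.12. The count over all genes was 10, and it became 18 with a pseudocount of 0.1, 5 with size factors made without the insulin genes and 4 with all genes above 0. Leaving out 1 mouse gave 2 (without βPrlR+/- mouse 4) to 13 (without βPrlR+/- mouse 3), and 5 without βPrlR+/- mouse 1, Prlr+/- mouse 1 or Prlr+/- mouse 2. The cause was not tested. The order of the 10 members by level kept all 10 places in the other scalings and 8 to 10 without 1 mouse, ADCY7 passing ADCY1 when βPrlR+/- mouse 3 or mouse 4 was left out. No paired analysis was possible because the labels give the mice no shared numbers. TPM do not show the reads behind a level, and members below 0.5 TPM were compared only by permutation in the report.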
